A study of Mus musculus with 76 samples.

Results

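The cytosolic ribosomal protein genes encode the proteins that, with ribosomal RNA, form the 40S and 60S subunits of the cytosolic ribosome. They were taken as the genes of the deposited table whose mouse symbol has the form Rpl or Rps with a number and at most a short suffix and which the GRCm38 annotation does not class as pseudogenes. This gave 79 of 38924 genes, 48 of the large (Rpl) and 31 of the small (Rps) subunit. Another 5 genes of the same name form are annotated as pseudogenes and were left out, and 9 ribosomal protein or ribosome-associated genes with other names, such as Rplp0, Rpsa and Rack1, were followed as a separate list.

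Cells need the ribosomal proteins in nearly equal amounts, and most are each encoded by a single active gene with many inactive processed copies across the mouse genome. Their mRNAs usually begin with a C at the cap followed by an unbroken run of pyrimidines, the 5′-terminal oligopyrimidine (TOP) motif, through which mTOR signalling controls their translation. Production of ribosomes is high in dividing progenitors and lower in neurons that have left the cell cycle. A few members are paralogs of another member: Rpl22l1 of Rpl22, Rps27l of Rps27, Rpl7l1 of Rpl7, Rpl3l of Rpl3, Rpl10l of Rpl10 and Rpl39l of Rpl39, of which Rpl3l is known from striated muscle and Rpl10l and Rpl39l from the testis.

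The study used 2 inbred mouse strains, C57BL/6J (called B6 here) and WSB/EiJ (called WSB), differentiated their embryonic stem cells and sequenced polyadenylated RNA at a neural progenitor stage (NPC), at maturation and at a stage of axonal regrowth (called axon here). At each stage cells of each strain were left as controls or given ID-8, which blocks the Dyrk1a kinase. Axon-stage cultures of both kinds were left uncut or had their axons cut. The labels give no age or day of the cultures, no clone or number of stem cell lines, and no statement that replicates were separate cultures, so p-values measure the spread between these samples, which may be technical in part. There were 76 sequenced samples from 70 libraries, of which 6 had repeat runs that were summed. There were 6 libraries in each of 4 NPC groups and 4 in each of 4 maturation groups. The axon stage had 4 in each group except 3 for B6 ID-8 cut and 3 for WSB ID-8 uncut.

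Library totals, in units of 1000000 counts, ran from 20.37 to 131.49 (median 37.42). Titles place the libraries in 3 number blocks. NPC replicates 1 to 3 belong to the first and 4 to 6 to the second. Most axon libraries belong to the second and maturation libraries to the third. The maturation libraries are grouped here into 2 culture experiments, and the axon libraries into culture sets, by the order of their titles. No title names an experiment or a set. All 10 neural progenitor markers and all 12 pan-neuronal markers had a mean of at least 1 CPM (counts in 1000000 of the library's total) in each of the 4 NPC groups. Pluripotency markers reached that level for 10 of 10 genes in 3 NPC groups and 9 of 10 in WSB controls, and fibroblast and mesenchyme markers for 9 of 9 in both B6 groups, 8 of 9 in WSB controls and 7 of 9 in WSB with ID-8. Some libraries stood apart before any comparison. Of the counts shared between members and their near-identical copies, B6 libraries put 17.3% to 19.7% on the copies and most WSB libraries 30.8% to 33.2%. Replicate 3 of the WSB axon cultures labelled cut with ID-8 put 18.4% there. The 4 WSB axon libraries of the third block (control uncut 4, ID-8 uncut 3, control cut 4 and ID-8 cut 4) put 20.8% to 21.4% there. Axon results for WSB are therefore given with and without the library that reads against its strain label. The 4 libraries of the third block were kept in the WSB comparisons of ID-8 and of cutting, fitted with library block as a term. No fit is given without all 4.

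To show what the start of such a gene looks like, the reference was searched at the start sites annotated by RefSeq (GRCm38.p6), where 60 of the 79 members were matched by symbol. A C at the start followed by at least 4 more C or T was found in 11 of 60 members (18.3%), against 380 of 17492 protein-coding genes (2.17%) and 0 of 69 mitochondrial ribosomal protein genes. A run of at least 8 C or T within 20 bases of the start was present in 29 of 60 members (48.3%), against 3574 of 17492 genes (20.4%) and 17 of 69 mitochondrial ones (24.6%). Only the strand that reads as the mRNA was searched, and the first pattern can lie inside the second. A match describes letters at an annotated start, not a working TOP motif. The sequences below run 5′ to 3′ from 50 bases before the start to 20 from it, with the pyrimidine run at the start in capitals. Rpl35, Rpl15, Rps6 and Rps18 show the longer kind of run, while Rpl22, its paralog Rpl22l1, Rps27l and Rpl10l, shown because their levels are described below, have none overlapping the annotated start, as many other members do not; in Rpl22l1 a run begins just after it.
Rpl35: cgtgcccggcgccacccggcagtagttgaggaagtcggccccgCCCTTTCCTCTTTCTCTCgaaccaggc
Rpl15: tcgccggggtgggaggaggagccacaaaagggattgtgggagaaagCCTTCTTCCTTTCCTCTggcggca
Rps6: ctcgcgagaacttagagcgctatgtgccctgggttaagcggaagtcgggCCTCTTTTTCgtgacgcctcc
Rps18: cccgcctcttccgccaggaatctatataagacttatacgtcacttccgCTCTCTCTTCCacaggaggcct
Rpl22: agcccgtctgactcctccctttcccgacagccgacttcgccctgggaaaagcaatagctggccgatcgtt
Rpl22l1: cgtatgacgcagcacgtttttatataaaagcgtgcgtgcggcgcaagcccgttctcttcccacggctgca
Rps27l: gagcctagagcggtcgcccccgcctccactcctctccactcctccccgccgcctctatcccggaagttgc
Rpl10l: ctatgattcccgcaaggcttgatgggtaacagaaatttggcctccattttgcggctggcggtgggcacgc
In the same order they lie at chr2:39005112-39005181 (minus strand), chr14:18270967-18271036 (minus strand), chr4:86857348-86857417 (minus strand), chr17:33955646-33955715 (minus strand), chr4:152325676-152325745 (plus strand), chr3:28805458-28805527 (plus strand), chr9:66946036-66946105 (plus strand) and chr12:66284382-66284451 (minus strand).

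The copies matter for every count. Of the 79 members, 73 shared sequence with other annotated genes, 665 in all, of which 646 are pseudogenes. Rpl21 had 55 such relatives, Rps2 41, Rpl7a 41 and Rpl29 40. A family sum, the member plus these relatives, was therefore kept beside each member's own count. In NPC controls the median own level of Rps2, a core protein of the 40S subunit (ENSMUSG00000044533, chr17:24718116-24721929, plus strand), was 1698 CPM in B6 and 11.2 in WSB, but its family sum was 1700.4 and 1134. Rpl29 had 393 and 6.75 on its own and 394 and 339 as a family. For Rps3a1 the own values were 959 and 61.4 and the family values 959 and 1124. Own counts of 12 members lay at least 2-fold apart between strains, and family sums of 4 (Rpl39l, Rpl3l, Rpl10l and Rps18), so levels of a member are compared below within a strain. The reverse case also occurs within both strains. Rps6, a small-subunit protein and the classic substrate of S6 kinase (ENSMUSG00000028495, chr4:86854660-86857412, minus strand), had only 36.8 CPM in B6 and 29.9 in WSB on its own locus, against 1042 and 1072 for its family.

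**Figure D1:**
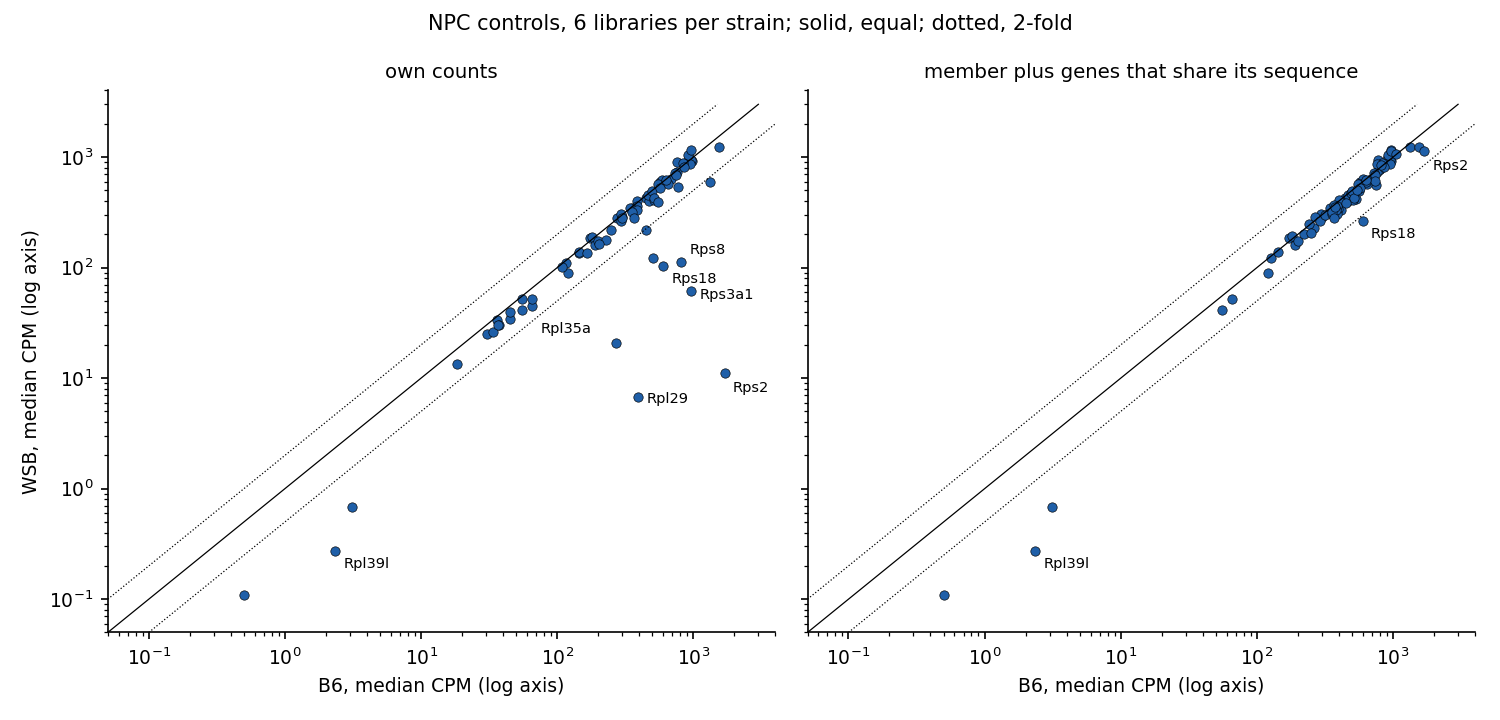
Median CPM of each member in the 6 NPC control libraries of B6 (x axis) and of WSB (y axis), both on log scales, from own counts (left) and from family sums (right); the diagonal marks equal levels. Rps2 moves from 1698 against 11.2 CPM to 1700.4 against 1134 once its copies are added, and 12 members lie at least 2-fold apart on the left and 4 on the right.

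Compared per kilobase of transcript, the family sums spanned a wide range in B6 NPC controls. Rps2 led at 1529 CPM per kb, followed by Rpl23a at 1437, Rps15 at 1286 and Rps6 at 1247. At the low end stood paralogs: Rpl7l1 at 45.4, Rpl10l at 3.04, Rpl39l at 2.91 and Rpl3l at 0.339 CPM per kb. Rpl22l1 (104) and Rpl22 (152) were of like size per length. Rps27 was listed at 0 in 69 of 70 libraries and was tested only as part of its family; its near-identical relative Rps27rt carries counts in the other list.

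Members took 2.97 to 5.01% of all counts in B6 NPC controls, one library, replicate 2, lying apart at the top, and 2.30 to 3.17% in WSB NPC controls. In uncut axon controls the share was 1.37 to 1.65% in B6 and 0.921 to 1.54% in WSB. At maturation it differed by culture experiment, with 2.80% and 2.64% in the first and 1.45% and 1.58% in the second for B6 controls, and 2.22% and 1.98% against 1.19% and 1.35% for WSB controls. NPC and later stages thus did not overlap within a strain, while the 2 maturation experiments did not overlap with each other. In bulk RNA, fewer cells of a type and less of an mRNA per cell cannot be told apart.

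**Figure D2:**
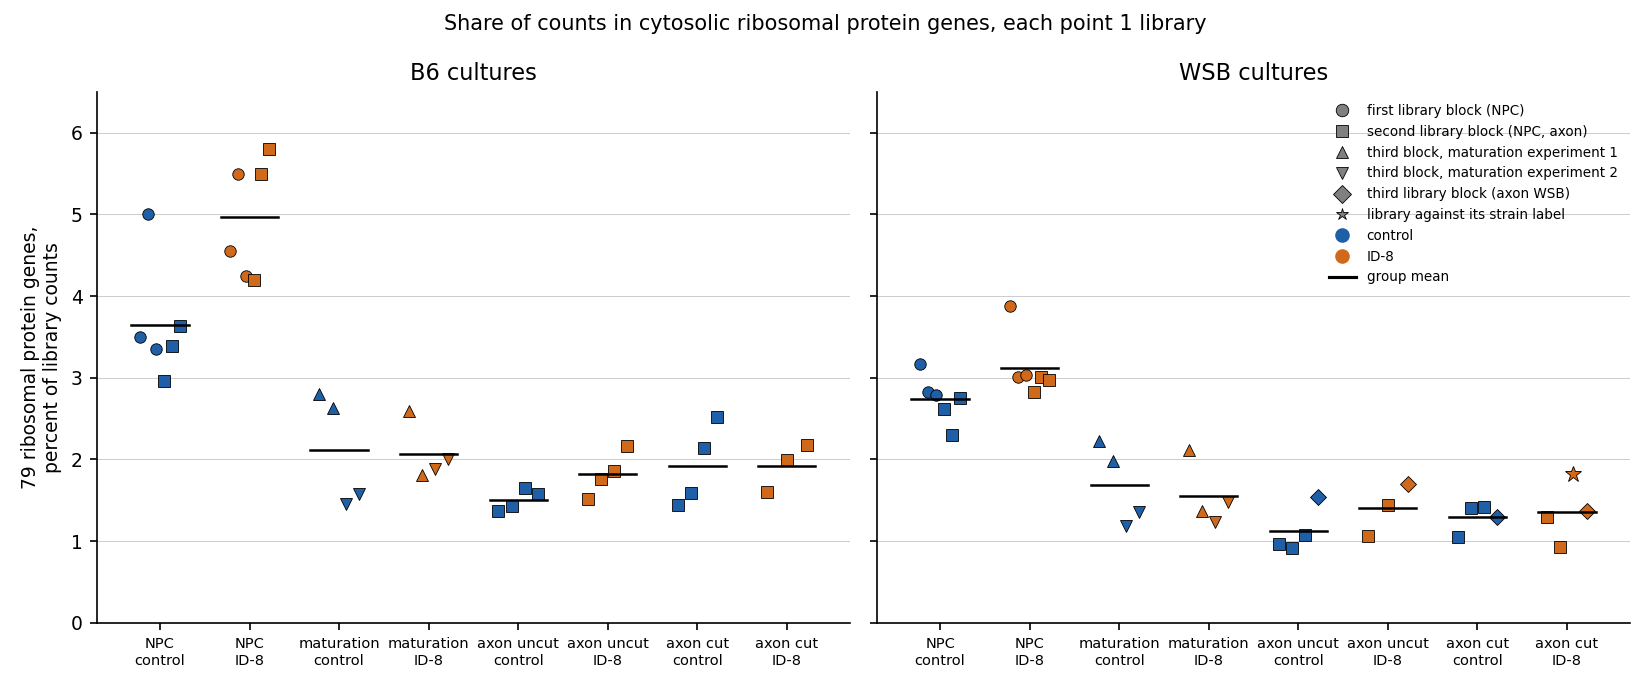
Percent of each library's counts that fall in the 79 members (y axis) by group (x axis), B6 and WSB in separate panels; each point is a library, its shape the library block or culture experiment, its colour control or ID-8, and the line the group mean. NPC controls of B6 sit at 2.97% to 5.01%, above every B6 control library of the later stages.

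Of the comparisons made, those between stages gave the largest median differences over the members. From NPC to the axon stage, compared within the second library block (3 NPC controls against 4 uncut controls in B6, and 3 against 3 in WSB), mRNAs of most members of both subunits fell. In B6, 70 of 78 tested members fell and 0 rose (edgeR's quasi-likelihood test with Benjamini-Hochberg adjustment over all genes, adjusted p under 0.05), with a median log2 difference of -1.07. Over all 18980 genes tested 28.9% fell and 28.1% rose, with a median of 0.0027. The large subunit had 43 of 48 lower (median -1.05) and the small 27 of 30 (median -1.08). In WSB, 67 of 78 fell and 0 rose, with a median of -1.24, against 25% of genes lower, 26.1% higher (51.1% either way) and a median of 0.022. There 40 of 48 large-subunit genes fell (median -1.24) and 27 of 30 of the small (median -1.29); a difference between subunits was not tested. By family sum 77 of 79 members were lower in B6 and 74 of 79 in WSB. In the interaction test of the strains by edgeR 0 of 78 members passed (2.1% of genes did), and DESeq2 called 0. In edgeR's test 5 members and 3086 of 18980 genes had an unadjusted p under 0.05. The strain comparison by own counts carries the copy problem given above.

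Rpl7a, a 60S protein, had the smallest p in both strains. Its own level in the B6 NPC controls was 863, 910.0 and 955 CPM and in uncut axon controls 387, 409, 415 and 384, a log2 difference of -1.15 ± 0.12 (SE, adjusted p = 9.46e-09). In WSB the NPC controls had 845, 853 and 933 and the axon controls of the same block 328, 301 and 344, a difference of -1.39 ± 0.14 (SE, adjusted p = 2.15e-09). The groups did not overlap in either strain. Rpl4, a 60S protein with a long internal loop in the peptide exit tunnel, had -1.40 ± 0.17 (log2 ± SE) in B6 and -1.44 ± 0.19 in WSB. Rpl8, at the peptidyl transferase centre, had -1.25 ± 0.15 and -1.38 ± 0.16, and Rps4x, the X-linked 40S protein, -1.24 ± 0.15 and -1.38 ± 0.17. Those are all core proteins of a ribosome. Rpl22, which also binds RNA outside the ribosome, fell by a log2 of 1.26 in B6.

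Of the 8 members that missed the threshold in B6, 2 were paralogs. Rps27l had a difference of -0.60 ± 0.35 (SE, adjusted p = 0.144) and Rpl22l1 of -0.22 ± 0.22 (SE, adjusted p = 0.421). Rps3a1, Rpl35a, Rps2 and Rpl29 missed it with differences of -1.16, -1.17, -1.03 and -0.80, and their libraries did not overlap between the stages. Rps3a1 had 849, 994 and 1096 CPM in NPC controls and 388, 397, 472 and 446 in uncut axon controls (-1.16 ± 0.60 SE, adjusted p = 0.102), and by family sum it fell by 1.17 (adjusted p = 1.72e-06, edgeR). Rpl27a and Rpl15 differed by -0.17 and 0.10 on their own loci only. By family sum Rpl27a fell by 1.16 (adjusted p = 4.81e-06) and Rpl15 by 0.79 (adjusted p = 3.04e-05, edgeR). In WSB, Rpl22l1 had a difference of 0.27 ± 0.24 (SE, adjusted p = 0.353) and Rps27l, a p53 target, fell by 0.97 (adjusted p = 0.0333, edgeR). Rpl7l1 fell in B6 by 0.95 ± 0.15 (log2 ± SE) as the canonical genes did. Without the library that reads against its strain label, which changes the spread estimated for all libraries, 74 members were called in B6 and 69 in WSB.

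Most genes that serve the making of ribosomes fell between these stages too. Of the other ribosomal protein genes 9 of 9 fell in B6 (median log2 -0.95) and 8 of 9 in WSB (median -1.05), Rplp0, a protein of the ribosomal stalk, by 1.03 and 1.22 on the log2 scale. Of the RNA polymerase I list 12 of 13 fell in B6 (median -0.72) and 10 of 13 in WSB (median -0.60). Ribosome biogenesis factors fell in 24 of 29 and 20 of 29 tested (medians -0.99 and -0.73) and none rose. Npm1, an abundant nucleolar protein, averaged 1442 CPM in B6 NPC controls and 344 at the axon stage, and 986 and 299 in WSB. Of elongation factors and other genes with TOP mRNAs 15 of 16 fell in each strain (medians -1.03 and -1.18), among them Eef1a1 at -1.07 in B6 and -1.33 in WSB, and the exception was Eef1a2, the form of neurons and muscle, which rose by 4.19 and 2.89. The mitochondrial ribosomal proteins, which act in another compartment, were split, with 8 higher and 29 lower of 77 in B6 (median -0.18) and 12 and 20 in WSB (median -0.06). Mycn and Mycl, growth-promoting MYC factors, fell by 2.15 and 2.24 in B6 and by 2.66 and 3.26 in WSB.

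Markers of other cells and of division moved with these stages. All 10 proliferation markers were lower at the axon stage in both strains, with summed levels of 1785 to 3399.8 CPM in B6 NPC controls against 216 to 578 at the axon stage, and 1429 to 2739 against 243 to 343 in WSB. Astrocyte markers were higher for 6 of 8 in B6 (sums of 229 to 323 against 2129 to 2902 CPM) and for 7 of 8 in WSB (254 to 323 against 1735 to 13872). Fibroblast and mesenchyme markers were higher for 8 of 9 in B6, with sums of 115.8 to 308 CPM against 2645 to 7329, and for 4 of 9 in WSB (187 to 421 against 145 to 2334). Pluripotency markers were lower for 9 of 10 in B6 (477 to 1309.9 against 18.6 to 71.7 CPM summed) and 8 of 10 in WSB (41.9 to 76.5 against 14.2 to 23.6). Dppa3, Dppa5a and Pou5f1 were at 0 in every uncut WSB axon control, no other marker of these 4 lists was at 0 in all libraries of one of these groups, and their part in the result was not tested.

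From NPC to maturation, with the NPC controls of the other stage comparison among those used, most members were lower as well, but here stage and library block cannot be told apart, since all maturation libraries belong to the third block. In B6 57 of 78 fell and 1 rose (median log2 -0.73; of 18627 genes 35.1% fell and 36% rose, median 0.015). In WSB 50 fell and 2 rose (median -0.70; 34.2% of genes fell, 37.8% rose, median 0.086). By family sum 63 and 59 of 79 were called. Rpl4 had 591, 666, 666 and 647 CPM in the B6 maturation controls against 1188 to 1961 CPM (median 1541) in NPC controls, a difference of -1.32 ± 0.15 (SE, adjusted p = 1.85e-09) with no overlap. Its difference in WSB was -1.45 ± 0.15 (SE, adjusted p = 2.12e-10). Rpl10l, a single-exon paralog of Rpl10 (ENSMUSG00000060499, chr12:66283379-66284401, minus strand), was at 0 to 0.0671 CPM in B6 maturation controls and at 1.47 to 4.20 CPM (median 3.13) in NPC controls (edgeR adjusted p = 9.22e-12). Its fitted fold change depends on the prior count and is not given. The 2 culture experiments gave unequal counts, with 29 members lower and 4 higher in B6 from the first alone (32.4% of genes lower, 33.0% higher) and 75 lower and 0 higher from the second alone (33.4% and 30.5%). In WSB there were 36 lower and 6 higher from the first (31.7% and 34.4% of genes) and 68 lower and 1 higher from the second (31.5% and 32.1%).

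Rpl22l1 and Rps27l were the members that rose. Rpl22l1 (ENSMUSG00000039221, chr3:28805436-28807424, plus strand) binds RNA like its paralog Rpl22, which represses it. Of the 31-base words of its transcript 64.4% occur in other annotated genes, although these add almost nothing to its counts. In NPC controls it was at 46.3 to 76.3 CPM (median 55.4) in B6 and from 25.6 to 49.2 CPM (median 41.6) in WSB. At maturation the B6 controls had 165 and 147 CPM in the first culture experiment and 33.2 and 58.0 in the second, and the WSB controls 155 and 150.4 CPM in the first culture experiment and 68.6 and 72.1 in the second. Every library of the first experiment thus lay above the NPC range of its strain, while in the second experiment B6 overlapped it. The log2 difference was 0.82 ± 0.32 (SE, adjusted p = 0.0233) in B6 and 1.42 ± 0.32 (SE, adjusted p = 0.000192) in WSB by edgeR. The first experiment alone gave 1.43 ± 0.25 (SE, adjusted p = 1.7e-05) in B6, and the second alone -0.35 ± 0.29 (SE, adjusted p = 0.294), with the sign turned. For WSB the second experiment alone still gave 0.75 ± 0.27 (SE, adjusted p = 0.0179).

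Rps27l (ENSMUSG00000036781, chr9:66946086-66949516, plus strand) rose in WSB by 0.91 ± 0.34 (SE, adjusted p = 0.018) on the log2 scale, and its difference in B6 was 0.29 ± 0.35 (SE, adjusted p = 0.463). Its WSB levels were 163 and 142 CPM in the first culture experiment and 49.5 and 46.0 in the second, against 31.4 to 71.1 CPM (median 51.9) at the NPC stage. The WSB rise thus rested on the first experiment, whose 2 libraries lay far above the others. From the second alone the difference was -0.17 ± 0.24 (SE, adjusted p = 0.561) in WSB and -0.91 ± 0.25 (SE, adjusted p = 0.00247) in B6. B6 levels were 140.2 and 115.6 CPM in the first culture experiment and 29.7 and 42.8 in the second. Rpl22 fell in both strains (-0.97 ± 0.17 in B6 and -1.13 ± 0.17 in WSB, log2 ± SE). Its B6 maturation controls had 186 and 178 CPM in the first culture experiment and 126 and 142 in the second, against 247 to 377 CPM (median 298) in NPC controls. The ratio of Rpl22l1 to Rpl22 counts was 0.186 ± 0.016 (SD, n = 6) in B6 NPC controls, 0.596 ± 0.307 (n = 4) at maturation and 0.363 ± 0.048 (n = 4) in uncut axon controls. In WSB it was 0.148 ± 0.036 (n = 6), 0.832 ± 0.174 (n = 4) and 0.319 ± 0.182 (n = 4), the last with 0.056 in the library of the third block. Ratios of the later stages lay above all NPC ratios of their strain except in that library; the ratio itself was not tested.

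**Figure D3:**
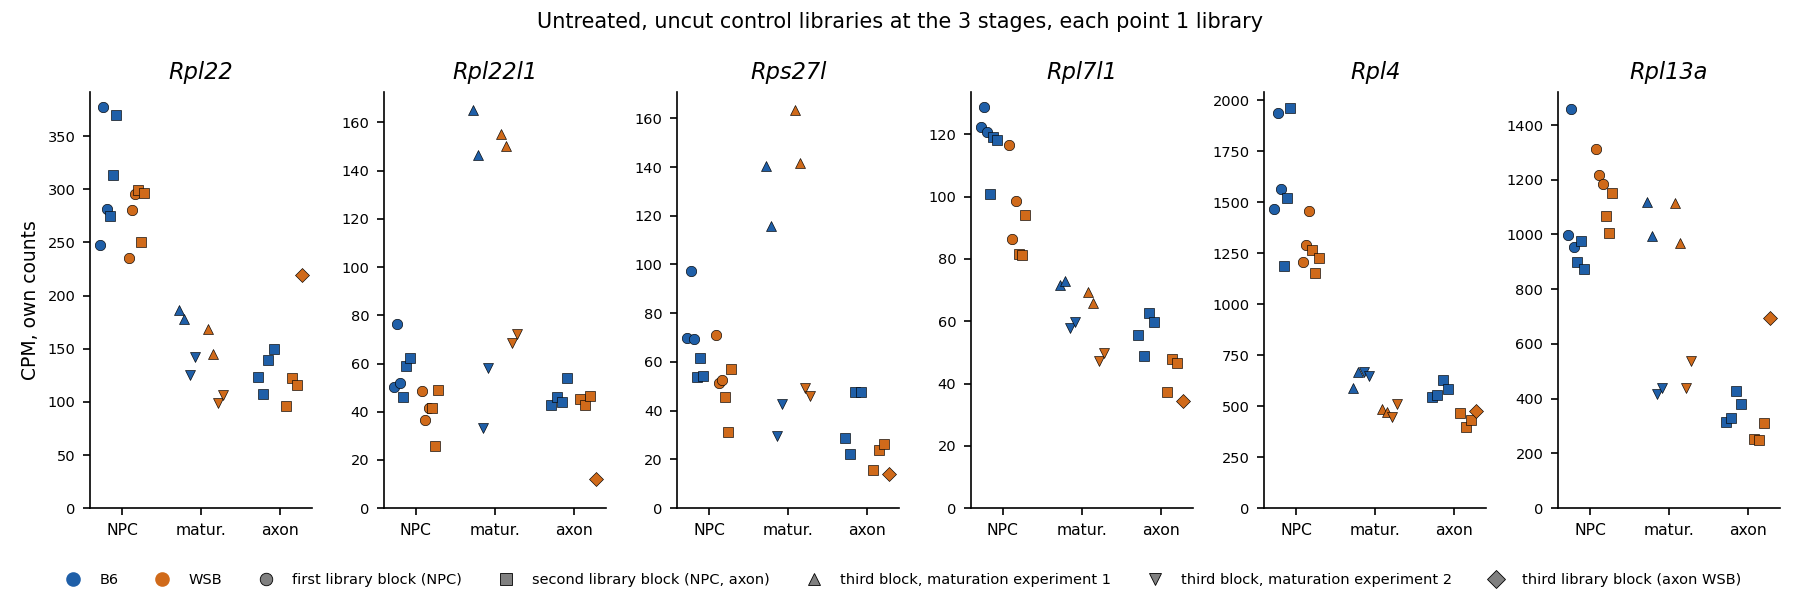
CPM (y axis) of Rpl22, Rpl22l1, Rps27l, Rpl7l1, Rpl4 and Rpl13a in each control library at the 3 stages (x axis), B6 and WSB in separate colours; shapes mark the library block or culture experiment. Rpl4 is lower at both later stages, while Rpl22l1 and Rps27l are highest in the first maturation experiment.

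The related lists at maturation had 23 biogenesis factors lower and 0 higher of 29 in B6 (median log2 -0.80) and 24 and 1 in WSB (median -0.71). Of the RNA polymerase I list 10 of 13 fell in B6 (median -0.60) and 11 of 13 in WSB (median -0.89), with 1 higher in each strain. Of elongation factors and TOP partners 14 of 16 fell in each strain (medians -0.92 and -0.94), and Eef1a2 rose by 5.07 in B6 and 3.60 in WSB. The other ribosomal protein genes fell in 7 of 9 in B6 (median -0.66) and 4 of 9 in WSB (median -0.36). Mitochondrial ribosomal proteins had 14 higher and 23 lower of 77 in B6 (median -0.024) and 26 and 17 in WSB (median 0.14). All 10 proliferation markers were lower, with sums of 56.0 to 90.6 CPM in B6 and 65.8 to 118.5 in WSB maturation controls. Astrocyte markers were higher for 8 of 8 in B6 (824 to 4893 CPM summed) and 7 of 8 in WSB (3929 to 4803), and fibroblast markers for 8 of 9 (2082 to 3048) and 9 of 9 (2471 to 5621). Pluripotency markers were lower for 9 of 10 in each strain and higher for 1 in WSB, with sums of 24.5 to 36.5 CPM in B6 and 12.3 to 19.2 in WSB; Dppa5a and Pou5f1 were at 0 in both strains and Dppa3 in WSB. Their part in the result was not tested.

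**Figure D4:**
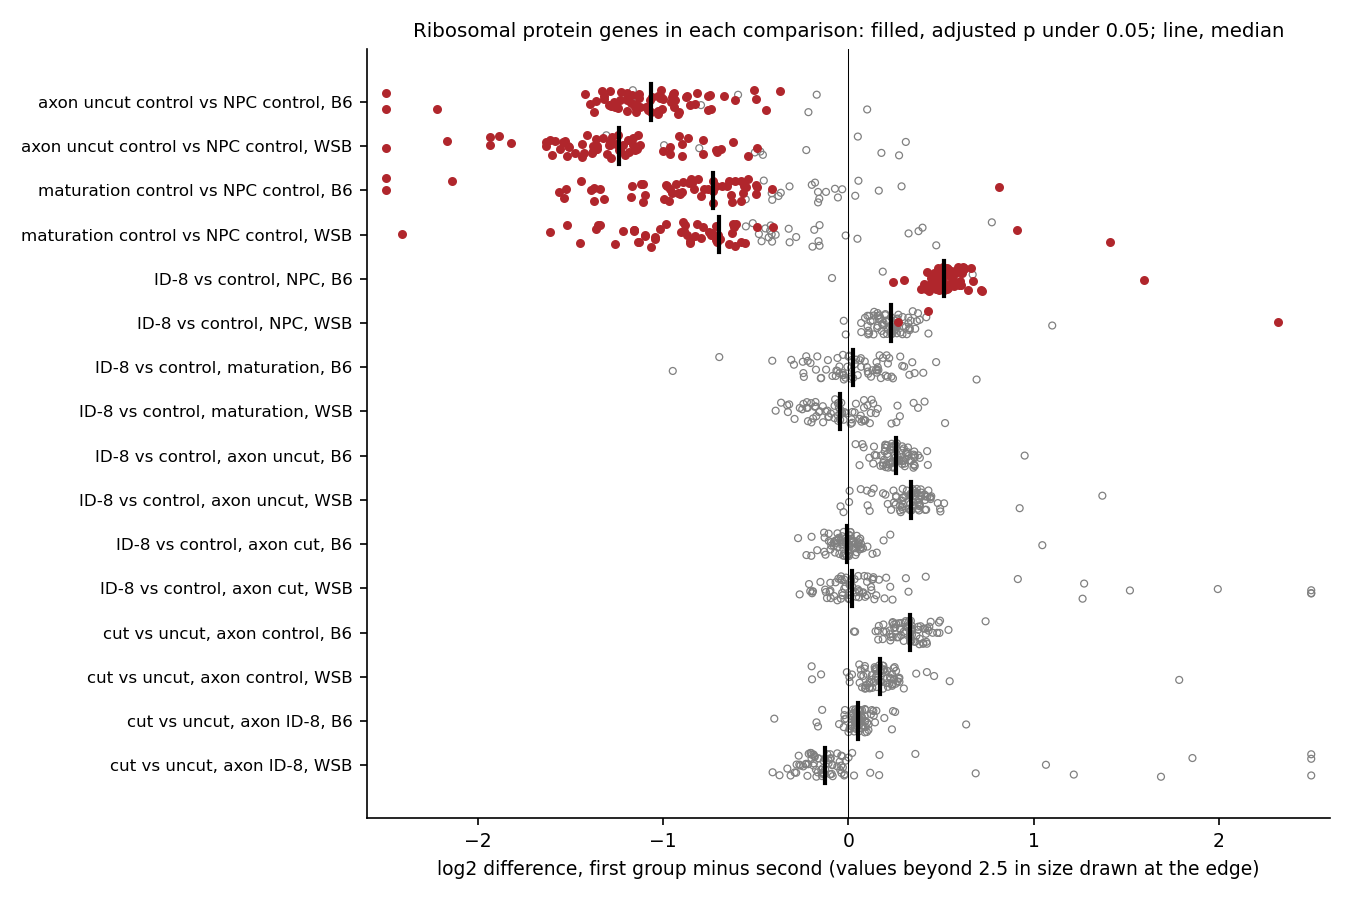
Log2 difference (x axis) of each tested member in each comparison (y axis). Filled points passed an adjusted p under 0.05, the line is the median, and the 11 values beyond 2.5 are drawn at the edge. Most members lie below 0 in the stage comparisons, above 0 for ID-8 in NPC of both strains (few of them filled in WSB), and on both sides of 0 for ID-8 at maturation.

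With ID-8, mRNAs of nearly all members were higher in B6 neural progenitors. Of 78 tested, 75 rose and 0 fell, against 18.4% of 17248 genes higher and 22% lower, with a median log2 difference of 0.52 over members and -0.036 over all genes. DESeq2 also called 75, and 77 of 79 were called by family sum. All 30 tested small-subunit genes rose (median 0.54), as did 45 of 48 of the large subunit (median 0.52). The exceptions were Rpl5, which with Rpl11 and the small 5S RNA binds Mdm2 (0.19 ± 0.09 SE, adjusted p = 0.113), and the paralogs Rpl3l (0.67 ± 0.44 SE, adjusted p = 0.232) and Rpl39l (-0.09 ± 0.44 SE, adjusted p = 0.889). Rpl5 was an exception on its own locus only: by family sum it rose by 0.53 ± 0.13 (SE, adjusted p = 0.00365), its own median in controls being 55.5 of 924 CPM. Rps2 ranged from 1135 to 2224 CPM (median 1698) in controls and from 2056 to 3132 CPM (median 2595) with ID-8, a log2 difference of 0.72 ± 0.14 (SE, adjusted p = 0.000448) by edgeR. The 2 groups overlapped only at the edges of their ranges.

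Rps6 on its own locus ranged from 33.8 to 49.9 CPM (median 36.8) in controls and from 45.7 to 74.2 CPM (median 57.0) with ID-8. The difference was 0.66 ± 0.11 (SE, adjusted p = 0.000125) by edgeR. By family sum, with a control median of 1042 CPM, Rps6 rose by 0.48 ± 0.12 (SE, adjusted p = 0.00285, edgeR). Rpl31, a 60S protein near the tunnel exit, had 0.60 ± 0.10 (SE, adjusted p = 9.58e-05), the smallest p of the members by own counts. The own locus of Rpl31 held a median of 33.9 of 490 CPM of its family in controls. By family sum Rpl31 rose by 0.56 ± 0.12 (SE, adjusted p = 0.000887, edgeR), and Rpl7l1 had the smallest p. Rpl7a rose by 0.49 ± 0.09 (log2 ± SE) on its own counts. Rpl4, one of the 4 members with the highest mean CPM over all 70 libraries, rose by 0.51 ± 0.13 (SE, adjusted p = 0.00428), and Rpl3, Rpl6 and Rpl13a, the others of that 4, by 0.51, 0.52 and 0.54. Among the paralogs Rpl7l1 ranged from 101 to 129 CPM (mean 118.4 ± 9.35, SD, n = 6) in controls and from 145 to 186 CPM (median 155) with ID-8, without overlap (0.50 ± 0.08 SE, adjusted p = 0.000131). Rps27l rose by 0.72 ± 0.15 (SE, adjusted p = 0.000899) and Rpl22l1 by 0.50 ± 0.20 (SE, adjusted p = 0.0454). Rpl10l, scarce in all libraries, had the largest change, with from 1.47 to 4.20 CPM (median 3.13) in controls and from 7.16 to 12.5 CPM (median 8.38) with ID-8, a difference of 1.60 ± 0.34 (SE, adjusted p = 0.00101).

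In WSB progenitors 3 of 78 members rose and 0 fell, against 4.71% of genes higher and 4.86% lower (9.57% either way), so the share called was near the background. The median was 0.23 over members and 0.0013 over genes, and 76 of 78 members had a positive difference. In edgeR's test 24 members and 4164 of 17248 genes had an unadjusted p under 0.05. Rpl10l rose, with from 0.456 to 1.03 CPM (median 0.687) in controls and from 1.07 to 7.61 CPM (median 3.47) with ID-8, a difference of 2.32 ± 0.36 (SE, adjusted p = 0.000468). It was the paralog with the largest step in both strains. Rpl28 ranged from 21.3 to 46.1 CPM (median 30.0) in controls and from 34.6 to 51.5 CPM (median 40.0) with ID-8 (0.43 ± 0.12 SE, adjusted p = 0.0207), and Rpl27a rose by 0.27 ± 0.08 (SE, adjusted p = 0.0414). By family sum 2 were called, Rps2 being one (0.54, adjusted p = 0.0111, edgeR), while the calls of Rpl28 (0.28 ± 0.14 SE, adjusted p = 0.232) and Rpl27a (0.20 ± 0.13 SE, adjusted p = 0.362) were lost. Rpl4 had 0.23 ± 0.13 and Rps27l 0.14 ± 0.15 (log2 ± SE). The difference between strains was itself tested by edgeR, with a median of -0.29 over members, WSB minus B6. There 0 of 78 members passed, against 3.19% of genes (1.44% upward and 1.76% downward), and DESeq2 called 0. In edgeR's test 15 members and 3953 of 17248 genes had an unadjusted p under 0.05.

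The B6 count rested on the second library block. With that block alone (3 controls, 3 ID-8) 73 of 78 members rose, at a median of 0.75, against 11.7% of genes higher and 11.0% lower in that fit. With the first alone 1 rose, at a median of 0.33 over members, against 3.95% of genes higher and 4.03% lower. That member was Rps6, by 0.57 ± 0.15 (SE, adjusted p = 0.0382), on an own locus that holds a small part of its family's counts. With the replicate number as a block, which pairs the samples of the first block in B6, 2 were called within that block, Rps6 and Rps2, against 11.6% of genes. Rps12 differed by 1.05 and Rps27l by 1.11 in the second block. When the difference between blocks was tested by edgeR, 0 of 78 members and 0% of genes passed, with a median of 0.34 over members, second minus first. DESeq2 called 0. In edgeR's test 7 members and 698 of 17248 genes had an unadjusted p under 0.05. Members took 3.95% of counts in controls and 4.76% with ID-8 in the first block and 3.33% and 5.17% in the second. In WSB the median of the difference between blocks was 0.013, and 0 members passed. There 0 members and 233 of 17248 genes had an unadjusted p under 0.05.

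Among the related lists in B6 progenitors, 9 of 9 other ribosomal protein genes rose (median 0.54), Rplp0 from a mean of 1532 to 2159 CPM. Ribosome biogenesis factors rose in 26 of 29 (median 0.59), among them Rrp9, a protein of the U3 snoRNP (log2 0.86), Fbl, the methyltransferase fibrillarin (0.68), and Nop56 (0.59). Of the RNA polymerase I list 8 of 13 rose (median 0.32), Polr1b from a mean of 46.4 to 81.0 CPM, and of the mitochondrial ribosomal proteins 41 of 77 (median 0.26). None of these 4 lists had a member that fell. Elongation factors and TOP partners had 11 higher and 1 lower of 16 (median 0.33), the mTOR list 4 and 5 of 17 (median -0.0012), and the MYC list 2 (Myc and Mycn) and 4 of 10 (median -0.32). In WSB the biogenesis list had 12 of 29 higher (median 0.35), Polr1b rising by 0.75, while 1 of 9 other ribosomal protein genes (median 0.28) and 1 of 77 mitochondrial ones (median 0.12) rose.

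Cell type markers moved with ID-8 in the same B6 libraries. Of 10 pluripotency markers 7 rose and 1 fell, with summed levels of 477 to 1309.9 CPM in controls and 1075 to 2519 with ID-8. Of 12 pan-neuronal markers 7 fell, with sums of 2136 to 6121 against 452 to 3155 CPM, and of 10 neural progenitor markers 5 fell, with 1784 to 3115 against 804 to 3121. Fibroblast and mesenchyme markers rose in 8 of 9 (115.8 to 308 against 307 to 1728 CPM), endoderm markers in 6 of 7 tested (22.5 to 41.1 against 47.3 to 312) and proliferation markers in 6 of 10 (1785 to 3399.8 against 2424 to 3225). In WSB 9 of 10 pluripotency markers rose, at far lower sums of 41.9 to 76.5 CPM in controls and 87.4 to 473 with ID-8, and none of the pan-neuronal or neural progenitor markers passed. No pluripotency, neuronal or progenitor marker was at 0 in these groups. Their part in the ribosomal protein result was not tested.

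At maturation no member passed the test for ID-8 over all 4 libraries a group. In B6 0 of 75 tested members were called (median log2 0.025; edgeR, 2 with an unadjusted p under 0.05, DESeq2 0) against 17.1% of 16954 genes (7.71% higher, 9.41% lower), whose median was 0.0042. In WSB 0 were called (median -0.045, 1 with an unadjusted p under 0.05, DESeq2 0) against 5.89% of genes (2.86% higher, 3.03% lower). Of all 16954 genes 5216 in B6 and 3369 in WSB had an unadjusted p under 0.05 in edgeR's test. Libraries of a strain paired by culture experiment, and with that replicate block 3 members rose and 1 fell in B6, against 13.4% of genes higher and 15.1% lower in that fit. Rps13 differed by 0.70 ± 0.19 (SE, adjusted p = 0.0126), Rpl21 by 0.42, Rpl28 by 0.49 and Rps12, a 40S protein, by -0.91. In WSB Rpl29 rose, where 7.17% of genes were higher and 7.03% lower (0.52 ± 0.15 SE, adjusted p = 0.0296). These are calls on own loci, and by family sum with that block fewer were called in B6. In B6 NPC controls the own loci of Rps13, Rpl28, Rpl21 and Rps12 held 18.5 of 316, 37.2 of 531, 352 of 569 and 165 of 389 CPM of their families. That of Rpl29 held 6.75 of 339 in WSB NPC controls.

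The 2 culture experiments gave different pictures in B6. From the second alone 35 of 75 members rose and 0 fell (median 0.39), against 13.8% of genes higher and 16.4% lower in that fit. From the first alone 0 rose and 1 of 77 fell, against 16.6% of genes higher and 14.8% lower (Rpl22l1, -0.97 ± 0.29 SE, adjusted p = 0.0358; median -0.22). Rpl12, a 60S protein near the stalk base, had 59.6 and 53.6 CPM in the first culture experiment and 17.2 and 20.5 in the second in controls. With ID-8 it had 55.1 and 37.3 CPM in the first culture experiment and 42.5 and 45.5 in the second. It was thus higher with ID-8 in both libraries of the second experiment and not in the first. The difference of the ID-8 responses between experiments, a test added after the data were seen, was called for Rpl12 (1.45 ± 0.40 SE, adjusted p = 0.0302, second minus first) and for no other member, against 12.3% of genes. It was positive for 74 of 75 members, with a median of 0.65 (genes 0.015). In edgeR's test 30 of 75 members and 4865 of 16954 genes had an unadjusted p under 0.05. DESeq2 called 16 members there, a count given without its share over all genes, and the family sum called 0.

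Rps27l in B6, with the control levels given above, had 113 and 63.5 CPM in the first culture experiment and 62.5 and 64.9 in the second with ID-8. Rpl38, a 60S protein linked to translation of Hox mRNAs, had 183 and 166 CPM in the first culture experiment and 70.9 and 85.4 in the second in controls, and with ID-8 202 and 120.5 CPM in the first culture experiment and 117.05 and 127 in the second. For both, the ID-8 libraries lay above the controls in the second experiment and the controls of the first lay above those of the second. In WSB the second experiment alone called 4 members, Rps2, Rpl21, Rpl15 and Rpl29, all higher (7.44% of genes were), and the first alone 0 (edgeR; 1 with an unadjusted p under 0.05; 13.5% of genes were called). The difference between the WSB experiments was called by edgeR for 0 of 75 members, against 0.383% of genes, with a median of 0.32. DESeq2 called 0. In edgeR's test 3 members and 2433 of 16954 genes had an unadjusted p under 0.05. Among lists in B6 over both experiments, 8 of 77 mitochondrial ribosomal proteins (median 0.17) and 3 of 29 biogenesis factors (median 0.22) rose. So did 3 of 16 elongation and TOP genes (median 0.17), where 7.71% of all genes rose. In WSB 3, 4 and 0 of these lists rose (medians -0.019, 0.22 and 0.14), against 2.86% of all genes.

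**Figure D5:**
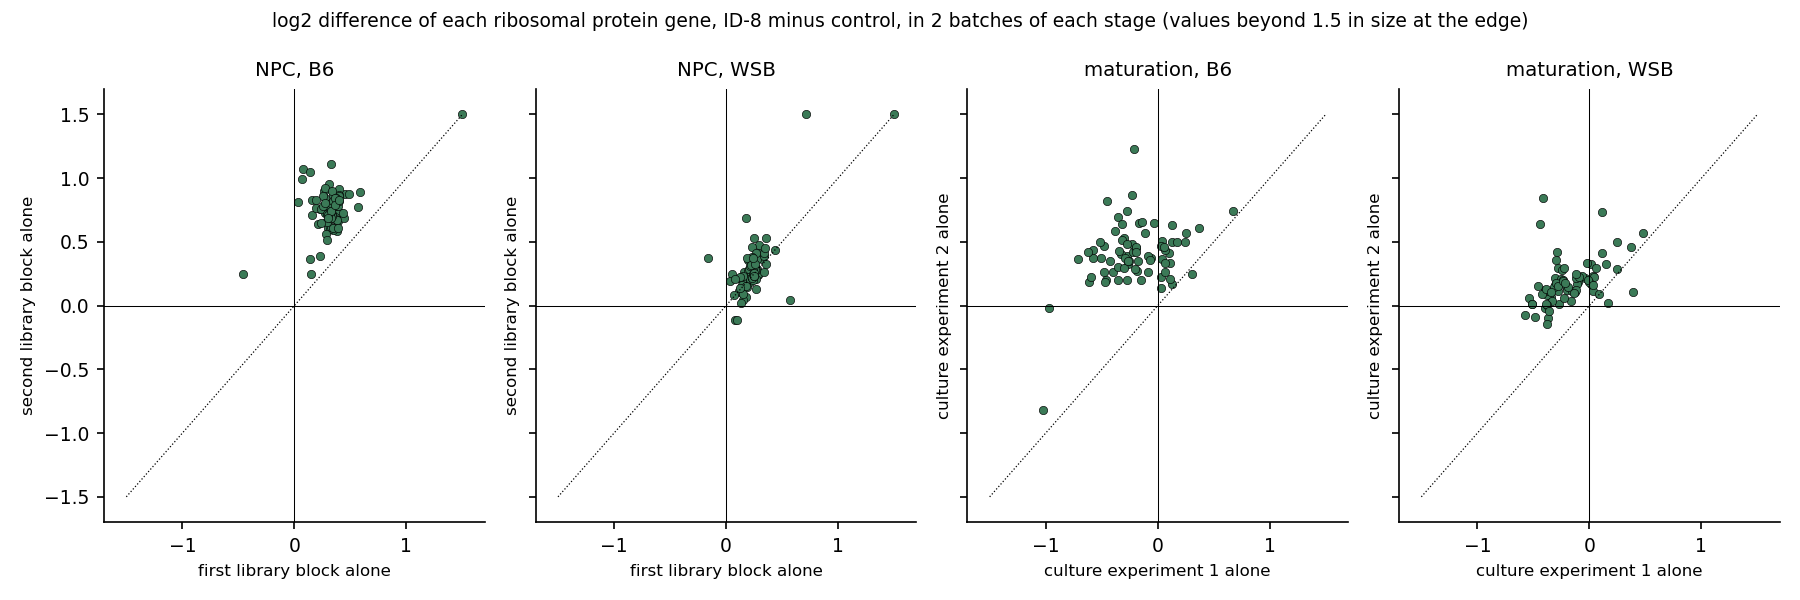
ID-8 minus control log2 difference of each member from the first batch alone (x axis) and the second alone (y axis), for the NPC library blocks and the maturation culture experiments in B6 and WSB; values beyond 1.5 are drawn at the edge. Members of B6 at maturation have a median of -0.22 from the first experiment and 0.39 from the second, while B6 NPC has 0.33 and 0.75.

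At the axon stage no member was called for ID-8 or for cutting without a block, and 1 or 10 members were with the culture set as block, for ID-8 in uncut WSB cultures. In all 8 comparisons, each group of which enters 2, 0 of 77 members and 0% of 18106 genes passed edgeR's test without that block. DESeq2 called 1 member, Rps3a1 for ID-8 in cut WSB cultures, and 0 in the other 7. Rps3a1 had 16.2, 13.8, 558 and 58.7 CPM in cut WSB cultures with ID-8, against 17.1, 15.5, 19.4 and 52.2 in cut controls. The value of 558 is from the library that reads against its strain label. Without that library the log2 difference of Rps3a1 was -0.07 in edgeR's fit. In uncut B6 cultures ID-8 gave a median log2 difference of 0.26, positive for 77 of 77, and in uncut WSB 0.34, positive for 75. An unadjusted p under 0.05 (edgeR) was found for 0 members and 751 of 18106 genes in B6, and for 6 and 1322 in WSB. Cutting in control cultures gave 0.33 in B6, positive for 77, and 0.17 in WSB, positive for 73. There 13 members and 182 genes had an unadjusted p under 0.05 in B6, and 1 and 717 in WSB. These comparisons share the uncut control group of their strain. The other comparisons share the cut ID-8 group. In B6 they gave a median of -0.0085 for ID-8 in cut cultures and 0.052 for cutting under ID-8. An unadjusted p under 0.05 was found for 0 members in each, and for 675 and 72 genes. In WSB the medians were 0.021 (7 members and 1380 genes unadjusted) and -0.13 (5 members and 1183 genes). Without the library that reads against its label they were -0.13 and -0.28. Whether one treatment changed the response to the other was not tested. The median over all genes was between -0.0066 and 0.018 in the 8 comparisons.

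Rpl7a gives an example in B6. Uncut controls had 387, 409, 415 and 384 CPM and cut controls 398, 437, 507 and 585. With ID-8, uncut cultures had 418, 472, 461 and 517 and cut ones 444, 497 and 537. All 4 uncut ID-8 libraries lay above the 4 uncut controls, but the difference did not pass the test. Rps27l had 29.0, 22.2, 47.7 and 47.9 in uncut and 32.3, 33.0, 83.8 and 101 in cut controls (0.74 ± 0.35 SE, adjusted p = 1, edgeR), with the ranges overlapping. Taken by culture set, the members' share of counts was higher with ID-8 in 4 of 4 uncut B6 sets (log2 ratio 0.15 to 0.46) and 3 of 3 uncut WSB sets (0.14 to 0.65), and higher after cutting in 4 of 4 control B6 sets (0.07 to 0.68) and 3 of 4 in WSB (-0.25 to 0.61). With ID-8 in cut cultures it was higher in 1 of 3 B6 sets (-0.22 to 0.15) and 3 of 4 WSB sets (-0.60 to 0.36). The value of 0.36 is from the WSB set whose cut ID-8 library reads against its strain label. The other WSB sets gave 0.30, -0.60 and 0.07. After cutting under ID-8 the share was higher in 3 of 3 B6 sets (0.0015 to 0.10) and 1 of 3 WSB sets (-0.64 to 0.28).

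The culture sets paired the axon libraries in B6, and in WSB once the library that reads against its label was left out. With the set as replicate block ID-8 in uncut WSB cultures called 1 member, against 3.11% of genes, Rpl27a (0.43 ± 0.11 SE, adjusted p = 0.0407). Without that library the block called 10 members, all higher, against 5.64% of genes higher and 5.6% lower, with a median of 0.40 over members. Among them were Rps7 (0.58) and Rpl22 (0.36). Rpl27a had 31.4, 28.0 and 30.8 CPM in uncut controls and 34.7 and 40.4 with ID-8 in the second library block, and 72.6 and 94.1 in the third. The third-block libraries were thus higher than all others, and ID-8 lay above control within each block. By family sum no member was called in any of the 8 axon comparisons (edgeR).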

How the data were processed

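The data are one table of expected counts per gene for 76 samples of polyadenylated RNA, made with a stranded kit, as the authors deposited it. Per the submitters' processing notes Bowtie2, RSEM, featureCounts, limma and the GRCm38 build were used, with no versions given and no role stated for each. RSEM shares reads that fit several genes among them by estimate, which bears on genes with many copies. Of the values 9.3178% were not whole. They were rounded, repeat runs of a library were summed, and CPM was the count in 1000000 of the library's total. Genes were named through the GENCODE annotation of GRCm38 (37607 of 38924 had a symbol).

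Each comparison was fitted over all genes with edgeR 4.0.16 (R 4.3.3, limma 3.58.1): TMM scaling, filterByExpr, a robust quasi-likelihood fit and Benjamini-Hochberg adjustment, a gene being called at an adjusted p under 0.05. The SE is the absolute log2 difference divided by the root of the F statistic. NPC libraries (24) and axon libraries (30) were fitted with library block as a term, maturation libraries (16) by group, axon against NPC within the second block. The filter kept 78 members at NPC, 75 at maturation (not Rpl3l, Rpl10l, Rpl39l and Rps27) and 77 at the axon stage (not Rpl3l and Rps27). A family sum adds to a member the pseudogenes that hold at least 10% of their 31-base words in common with it, other genes with at least 50%, and genes named as its copy. Alternatives were DESeq2 1.42.0, other scalings and filters, family sums, each batch alone, each replicate left out and replicate blocks.

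Libraries pair where their deviations from the group means correlate above 0.1 in every pair. This held for culture experiments at maturation (8 of 8 pairs in each strain, lowest 0.206 in B6 and 0.159 in WSB), for axon culture sets in B6 (21 of 21, lowest 0.43) and in WSB without the library that reads against its label (19 of 19, lowest 0.418; 19 of 21 with it), and for replicate numbers of the first NPC block in B6 (3 of 3, lowest 0.121) but not in WSB (2 of 3). Culture experiments and sets were assigned from the order of the numbers or letters in the titles, which name neither.

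Named genes were, per comparison, the 8 called members with the smallest p in each direction, the 6 paralogs, the 4 most abundant members, up to 4 called genes of each list, and the 6 members most different between strains. Members of small counts called, those that missed a threshold and Rpl38, Rps7, Rps12, Rps13 and Rpl5 were named after their values were seen. The members and all lists were chosen with earlier results of these data known. On counts simulated for ID-8 in B6 NPC, 148 of 200 changes of 2-fold were recovered (74%) with 6 false calls among 16997 genes. Tables were handled in Python 3.11.15 with pandas 2.3.3 and numpy 2.4.6, and figures drawn with matplotlib 3.10.9.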

Additional observations from a re-analysis of the deposited data

Results flagged for a closer look

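Within each group of 4 or more libraries the highest or lowest was set against the others by Dixon's criterion, over 12 measures (the members' share, the copies' share and single members). It marked 17 of 168 groups and measures, where chance marks about 1 in 20. Many of them shared a library. B6 NPC control replicate 2 stood high in the members' share (5.01% of counts), in Rps27l (97.3 CPM) and in Rpl13a (1460.1 CPM), and WSB NPC ID-8 replicate 1 stood high in the share (3.88%), in Rpl13a (1608 CPM) and in Rpl6 (1226 CPM).

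The WSB axon libraries of the third block stood apart again. Control uncut replicate 4 had 21.2% of family counts outside the members, Rpl22l1 at 12.3 CPM and Rpl13a at 696 CPM, and control cut replicate 4 had 20.8% outside and Rpl4 at 405 CPM. Rpl39l, scarce throughout, stood apart in WSB axon libraries at 0.0219 CPM (control uncut replicate 1), 0.12 CPM (control cut replicate 1) and 0.286 CPM (ID-8 cut replicate 3, the library that reads against its label). In B6 maturation with ID-8, replicate 1 was high in Rps27l (113 CPM) and Rpl13a (801 CPM), and replicate 2 stood apart in Rpl7l1 (62.3 CPM).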

How the results depend on the processing

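Over the 76 differences of named members that were called, the alternatives gave the same call 921 times, lost it 71 times and turned its sign 3 times. The turned ones were Rpl22l1 from NPC to maturation in B6 with the second culture experiment alone (-0.35), Rps27l in WSB with that experiment alone (-0.17) and Rpl39l in B6 when all 70 libraries were fitted with library block (0.54). Counts of members called stayed within 1.5 times of those reported in 268 cases and moved further in 26. The counts that follow show how far the calls depend on the processing. Where the share of all genes called in a fit is not given above, a count is not a result about the members. ID-8 in B6 NPC called 1 member with the first library block alone and 2 with the replicate block within that library block. In WSB NPC it called 6 by DESeq2, 1 without the library block as a term, and 0 from either library block alone or with the replicate block within the first. At maturation ID-8 in B6 called 4 with the replicate block, 1 by family sum with that block, 1 and 35 from the experiments alone, and 0 to 1 when a replicate was left out. In WSB these gave 1 with the replicate block and 4 from the second experiment. For ID-8 at the axon stage in WSB, uncut cultures gave 1 with the replicate block and 10 when the library against its label was left out too. Cut cultures gave 1 by DESeq2 (Rps3a1, high in the library against its label) and 0 to 2 with a replicate left out. The difference of stage changes between strains gave 1 without that library (Rps3a1). From NPC to maturation 36 members were called in B6 with NPC libraries of the second block alone and 33 with the first culture experiment alone. The difference between maturation experiments gave 16 by DESeq2, 43 without a filter and 0 by family sum in B6, and 2 without a filter in WSB. With a replicate left out, 65 to 70 members (B6) and 61 to 67 (WSB) were called between NPC and axon stages, and 45 to 64 and 47 to 59 between NPC and maturation. The replicate block changed no other count of members by more than 1.5 times. The cause of these shifts was not tested. The scarce paralogs Rpl3l, Rpl10l and Rpl39l are limited by depth.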
